A study of Homo sapiens with 6 samples.

Results

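The genes described here encode subunits of the vacuolar proton pump (V-ATPase). They were chosen by name, as the rows of the deposited expression table of DU145 cells for ATP6V1A, ATP6V1B2, ATP6V1C1, ATP6V1D, ATP6V1E1, ATP6V1H, ATP6V0B, ATP6V0C, ATP6V0D1 and ATP6AP1. Of these 10 genes, 9 had a row among the 10542 listed genes, and ATP6V1B2 was not analysed here. The 9 genes comprised 5 subunits of the V1 sector, 3 subunits of the V0 sector and 1 accessory protein. DU145 cells are an established line from a human prostate cancer. They were transduced either with a TFEB overexpression lentivirus (DU145-TFEB, 3 libraries) or with a blank vector lentivirus (DU145-vector, 3 libraries), and both lines were made stable by puromycin selection. PolyA RNA was sequenced to ask how raised TFEB changes expression in a line with low TFEB. Whether the stable lines were pools or single clones, and which promoter drove TFEB, is not given in the sources used here, nor is it said that the libraries of a group came from separate cultures. The p-values therefore measure only the spread between these libraries, which may be technical.

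The vacuolar proton pump is a rotary enzyme that acidifies lysosomes, endosomes and secretory vesicles. Its V1 sector sits in the cytosol and hydrolyses ATP, and its V0 sector lies in the membrane and carries protons, so that a working pump needs both. Whole V1 sectors can leave and rejoin V0, which is a known way to switch the pump off and on. TFEB is a transcription factor that recognises E-boxes of the CLEAR type, and pump subunit genes are among its best known target genes.

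Because TFEB binds E-boxes, the start sites of the pump genes were searched for the E-box core CACGTG, which reads the same on both strands. RefSeq promoter windows (GRCh38.p14, 250 bases before to 50 after a start site) were matched by symbol to 6 of the 9 genes, ATP6V1D, ATP6V1E1, ATP6V0B, ATP6V0C, ATP6V0D1 and ATP6AP1. There was no entry for the others. Of the 6 genes, 2 held the core, ATP6V0B with 2 copies and ATP6V0D1 with 1, and both encode V0 subunits. Among the other pump genes with a row, ATP6V0E2 also held it. The stretches that carry these E-boxes are shown 5′ to 3′ on the strand of the gene, with the E-box core in capitals, because they are the letters in these windows that TFEB is known to recognise. The last line shows, for contrast, bases before the start of ATP6AP1, which held no core.
ATP6V0B (chr1:43974900-43974929, plus strand): ggtCACGTGgtaccggcgcatCACGTGggc
ATP6V0D1 (chr16:67481199-67481228, minus strand): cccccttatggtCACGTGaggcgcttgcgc
ATP6V0E2 (chr7:149872884-149872913, plus strand): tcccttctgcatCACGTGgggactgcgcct
ATP6AP1 (chrX:154428572-154428631, plus strand): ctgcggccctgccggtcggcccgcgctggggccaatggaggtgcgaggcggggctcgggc
The cores began at positions -57 and -39 from the start site in ATP6V0B, at -59 in ATP6V0D1 and at -72 in ATP6V0E2. In ATP6V0B at least 1 core, and in ATP6V0D1 the only core, began within a GENCODE 29 exon, and in ATP6V0E2 outside any exon. Exons of all genes on both strands were counted for this. All 4 copies stood next to a T, as TCACGTG on either strand, and none had GT before and AC after the core, the full CLEAR palindrome. Of all 35116 windows, 7.26% held CACGTG, 3.71% held TCACGTG, which contains it, and 0.353% the full palindrome. These shares count windows, of listed and unlisted genes, and are not shares of genes. Counted by gene, 959 listed genes held the core in at least 1 window and 6662 with a window did not. These matches describe the letters of the windows and do not show binding.

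The libraries held 13999961 to 16511477 reads on the listed genes. TFEB was at 6221 ± 160 normalized counts in DU145-TFEB against 125 ± 1.82 in DU145-vector (mean ± SD, n = 3 libraries each), a log2 fold change of 5.62 (SE 0.075). A normalized count is the number of reads divided by the size factor of the library. The table lists only genes with a deposited adjusted p-value below 0.05 (10542 of 10542), so a low p-value of a listed gene is no independent evidence that it changed, and what follows turns on directions and sizes. The median log2 fold change of all listed genes was -0.36, and it was -0.11 with DESeq2 on the recovered reads and -0.03 with quantile normalization. Fold changes are therefore also given relative to this median. Of the markers looked up, KRT8 and KRT18, keratins of simple epithelia, lay between 5517 and 28109 normalized counts in every library. EPCAM, CDH1, KLK3, PTPRC, PECAM1 and COL1A1 were not analysed here. In bulk RNA, fewer cells that express a gene and less of its RNA per cell cannot be told apart.

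The V1 subunits were lower in DU145-TFEB than in DU145-vector, all 5 of 5 with an adjusted p-value below 0.05, and they split into 3 that fell by more than 1 on the log2 scale and 2 that differed little. The share of all listed genes called lower was 52.4%. ATP6V1A, the catalytic subunit that binds and splits ATP (chr3:113747019-113812056), had 552, 466 and 667 normalized counts with TFEB overexpression and 1245, 1151 and 1167 with the vector. The highest DU145-TFEB library was thus well below the lowest DU145-vector library. Its log2 fold change was -1.09 (SE 0.13, limma adjusted p = 3.5e-05), which is -0.74 relative to the listed median. ATP6V1C1, the C subunit of the stalk that is released when the sectors part (chr8:103021063-103073051), had 925, 844 and 1082 against 2707, 2920 and 2379 normalized counts. It fell the most of the 9 genes, with no overlap and a log2 fold change of -1.49 (SE 0.11, limma adjusted p = 4.67e-06). ATP6V1D, part of the central rotor shaft (chr14:67294371-67360265), had 799, 789 and 857 against 1807, 1863 and 1765 normalized counts. Its groups were tight and far apart, with a log2 fold change of -1.15 (SE 0.07, limma adjusted p = 3.26e-06). Of its exon bases, 6.33% overlap EIF2S1 on the opposite strand, and the strand setting of the counting is not given in the sources used here.

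ATP6V1E1 and ATP6V1H behaved differently from the other V1 genes. ATP6V1E1, a subunit of the peripheral stalks (chr22:17592136-17628818), had 4715, 4738 and 5180 normalized counts in DU145-TFEB and 5967, 5552 and 5544 in DU145-vector. The groups did not overlap, but the gap between them was small, and the log2 fold change was -0.22 (SE 0.07, limma adjusted p = 0.0107). It was 0.13 relative to the listed median and 0.02 with DESeq2 (adjusted p = 0.849), so that its direction flips with the scaling. The call was also lost without replicate 1 of DU145-TFEB (adjusted p = 0.0544). Without replicate 1 of DU145-vector the adjusted p was 0.05. ATP6V1H, the regulatory H subunit that couples and restrains ATP hydrolysis (chr8:53715557-53843558), had 1302, 1423 and 1306 against 1762, 1606 and 1542 normalized counts. Its log2 fold change of -0.28 (SE 0.08, limma adjusted p = 0.00713) shrank to -0.04 with DESeq2 (adjusted p = 0.697) and turned to 0.07 relative to the listed median. ATP6V1A, ATP6V1C1 and ATP6V1D stayed lower, with an adjusted p-value below 0.05, under all 19 alternative settings. These calls were against 0. With the length and GC trend removed, as described below, they were at -0.03, -0.16 and -0.22 relative to the listed median.

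The V0 subunits and the accessory protein went the other way. All 3 of 3 V0 genes and ATP6AP1 were higher in DU145-TFEB with an adjusted p-value below 0.05, against 47.6% of all listed genes called higher. ATP6V0B, a proteolipid of the proton-carrying ring (chr1:43974487-43978295) and the gene with 2 E-boxes, had 2149, 2614 and 2231 normalized counts in DU145-TFEB and 1505, 1328 and 1567 in DU145-vector. Every DU145-TFEB library exceeded every DU145-vector library, and the log2 fold change was 0.67 (SE 0.10, limma adjusted p = 0.000158). ATP6V0D1, which joins the rotor to the ring (chr16:67438014-67481237) and holds 1 E-box, had 1947, 2393 and 1861 against 1412, 1341 and 1445 normalized counts. It was higher by 0.55 on the log2 scale (SE 0.10, limma adjusted p = 0.000567), again without overlap. ATP6AP1, an accessory protein that helps to assemble V0 and whose window held no E-box (chrX:154428632-154436516), had 2127, 2074 and 1835 against 1124, 1078 and 1203 normalized counts. This was the largest rise of the 9 genes, with a log2 fold change of 0.82 (SE 0.08, limma adjusted p = 1.89e-05). Relative to the listed median the rises of these 3 genes were 1.02, 0.91 and 1.18.

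ATP6V0C, the main proteolipid of the ring (chr16:2513870-2520218), was the lowest of the 9 genes, with 130, 141 and 178 normalized counts in DU145-TFEB and 97.0, 89.7 and 109 in DU145-vector. Its log2 fold change was 0.59 (SE 0.17, limma adjusted p = 0.00661), with no overlap. Its level is uncertain, because 72.1% of its exon bases are shared on the same strand with AC093525.1 and AC093525.2, and how reads in shared exons were counted is not given in the sources used here. The smallest read count behind any value of the 9 genes was 92, in ATP6V0C.

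**Figure D1:**
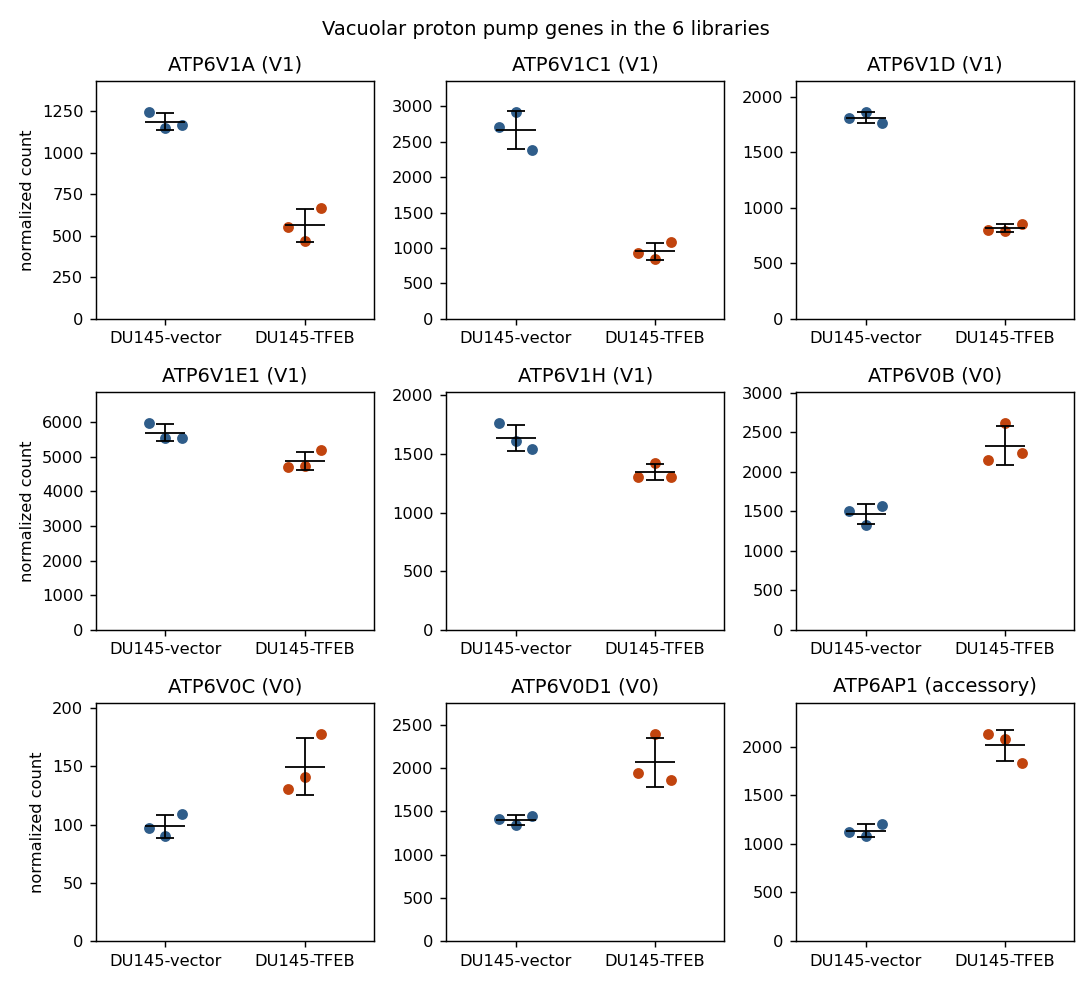
Normalized counts (vertical axes, each from 0) of the 9 vacuolar proton pump genes in the DU145-vector (blue) and DU145-TFEB (red) libraries. Points are libraries, long bars the means and whiskers the SD (n = 3). The V1 genes are lower and the V0 genes and ATP6AP1 higher in DU145-TFEB, and in no panel do the groups overlap.

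In all 9 genes the groups did not overlap, but this was also so for 99.3% of the listed genes. With 3 libraries against 3, an exact two-sided permutation test of any of them gives 0.1, the smallest p it allows. No gene of the 9 passed the cutoff of the study, an absolute log2 fold change above 1.5 together with an adjusted p-value below 0.05 in limma, against 19.1% of the listed genes. The count was also 0 with edgeR and with DESeq2. An unadjusted p could not change it in limma, because the largest change, -1.49 in ATP6V1C1, did not reach the fold cutoff. The count was 1 (ATP6V1C1) without replicate 3 of DU145-TFEB (log2 fold change -1.59) and without replicate 3 of DU145-vector (-1.57). With a cutoff of 1 it was 3, ATP6V1A, ATP6V1C1 and ATP6V1D. Of the listed genes, 28.3% had a log2 fold change below that of ATP6V1A (-1.09), the smallest fall of these 3.

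Levels can be compared between genes only per length. Per kilobase of exon, ATP6V1E1 had the highest level in both groups, 1771 ± 75.4 normalized counts in DU145-vector and 1519 ± 81.6 in DU145-TFEB. In DU145-vector it was followed by ATP6V1C1 (456 ± 46.6), ATP6V1D (426 ± 11.5) and ATP6V0B (415 ± 35.0 normalized counts per kilobase), 3 genes that did not differ beyond their spread. ATP6V1H (322 ± 22.3) stood above ATP6AP1 (232 ± 13.0) and ATP6V1A (231 ± 9.80), which could not be told apart, and ATP6V0D1 (170 ± 6.48) and ATP6V0C (65.8 ± 6.49) came last. The order was another in DU145-TFEB. There ATP6V0B (660 ± 70.3) and ATP6AP1 (412 ± 31.8) moved to the places after ATP6V1E1. ATP6V1H (264 ± 13.5) and ATP6V0D1 (252 ± 34.8) did not differ beyond their spread. ATP6V1D (192 ± 8.61) and ATP6V1C1 (162 ± 20.7 normalized counts per kilobase) followed, and ATP6V1A (109 ± 19.6) and ATP6V0C (99.9 ± 16.5) overlapped at the end.

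Set against each other within a library, V1 levels were lower relative to V0 levels in DU145-TFEB. The mean log2 level of the 5 V1 genes minus that of the 3 V0 genes was 1.95, 2.04 and 1.75 in DU145-vector and 0.55, 0.27 and 0.56 in DU145-TFEB. The lowest DU145-vector value was far above the highest DU145-TFEB value. The difference of the means was -1.45 on the log2 scale (pooled SD 0.157, n = 3 libraries each), a 2.74-fold change of the ratio of V1 to V0. A size factor shifts V1 and V0 levels of a library alike, so this value does not depend on it. No p-value is given, because the genes were chosen with results of these data known. Without ATP6V0C, whose exons are shared, the difference was -1.46. The mean V1 minus V0 value was then 0.63 in DU145-vector and -0.83 in DU145-TFEB. These levels were not divided by gene length, so the sign of a value does not say which sector was higher. Whether the levels drew together or crossed cannot be read from them. The length of a gene is the same in every library, so the difference between the groups does not depend on it. With all 7 V1 and 7 V0 subunits that had a row the difference was -0.56, less than in the chosen genes. Each gene weighs equally in it. This includes the V0 gene ATP6V0A4, which had only 13.7 to 57.8 normalized counts and a log2 fold change of -1.46. The added V1 genes ATP6V1E2 and ATP6V1F rose, by 0.43 and 0.68. The part of single genes in the smaller value was not tested.

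**Figure D2:**
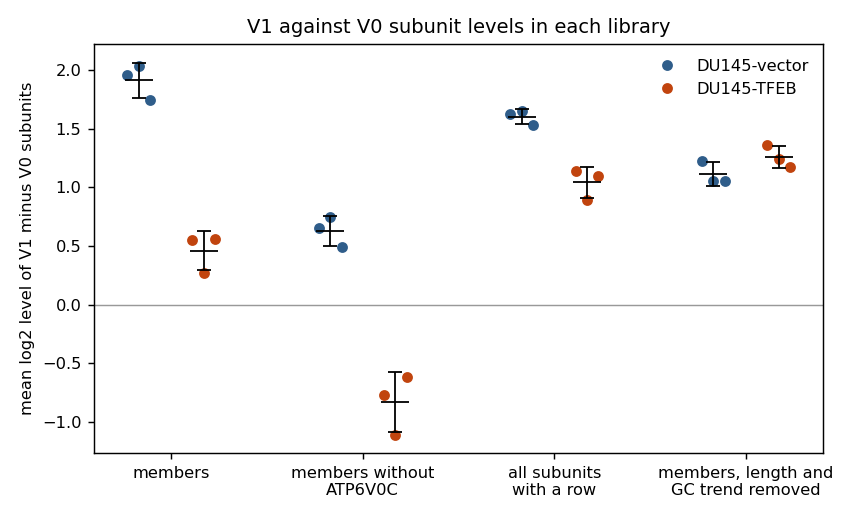
Mean log2 level of V1 subunits minus that of V0 subunits (vertical axis, log2) in each DU145-vector (blue) and DU145-TFEB (red) library, for 4 sets of values. Points are libraries, long bars the means and whiskers the SD (n = 3). The groups lie 1.45 apart for the 5 V1 and 3 V0 members and overlap once the trend with length and GC content is removed. Levels are not divided by gene length, so a value above or below 0 does not say which sector was higher.

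The V1 and V0 genes also differed in base composition. The GC content of their transcripts ran from 39.1% (ATP6V1C1) to 44.4% (ATP6V1E1) in the V1 genes and from 56.8% (ATP6V0D1) to 64.1% (ATP6V0C) in the V0 genes, with 57.8% in ATP6AP1, so that the sectors did not overlap. Across the 9 genes the log2 fold change rose with GC content (Spearman 0.917, a description across genes, which share the 6 libraries). The same held for all listed genes (Spearman 0.752). Length went less closely with it, with a Spearman correlation of -0.40 in the 9 genes and -0.34 in all listed genes. The listed lengths were 5130 bases for ATP6V1A, 5851 for ATP6V1C1, 4251 for ATP6V1D, 3212 for ATP6V1E1 and 5090 for ATP6V1H, against 3535 for ATP6V0B, 1498 for ATP6V0C, 8212 for ATP6V0D1 and 4884 for ATP6AP1. ATP6V0D1, the longest of them, rose, and ATP6V1E1, shorter than all but 1, did not. Within a group, too, libraries differed along GC content. Taken as each library minus the mean of the others of its group, the Spearman correlation with GC content over 10537 genes was 0.52 for replicate 2 and -0.58 for replicate 3 of DU145-TFEB. It was -0.61 for replicate 2 of DU145-vector. Replicate 2 of DU145-TFEB was the lowest of its group in ATP6V1A, ATP6V1C1 and ATP6V1D and the highest in ATP6V0B and ATP6V0D1. It was also the highest in ATP6V1H, a gene of low GC content. In ATP6V1E1, ATP6V0C and ATP6AP1 it lay between the other libraries of its group.

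**Figure D3:**
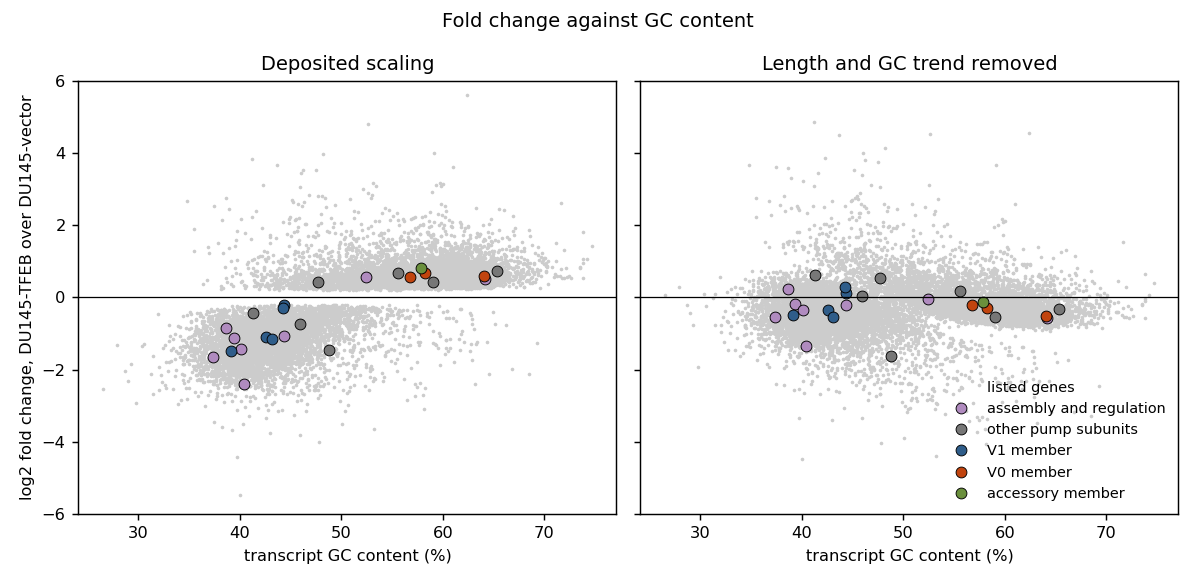
Log2 fold change of DU145-TFEB over DU145-vector (vertical axis) against transcript GC content in percent (horizontal axis) for the listed genes (grey) and the pump and assembly genes (coloured), with the deposited scaling (left) and after the trend with length and GC content was removed (right). At left the 5 V1 members (blue) lie at low GC content and below 0 and the 3 V0 members (red) at high GC content and above 0, while other subunits (dark grey) lie on both sides; the empty band at 0 is the selection of the table.

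When the trend with length and GC content over the listed genes was removed from each library, the split between the sectors was no longer seen. Of the 9 genes, 1 was then higher and 6 lower with an adjusted p-value below 0.05, against 14.8% and 54.5% of the listed genes. The median of all listed genes was then -0.32 on the log2 scale. ATP6V1H was the gene that was higher, at 0.28 (SE 0.07, limma adjusted p = 0.00523). ATP6V1A, ATP6V1C1 and ATP6V1D remained lower, at -0.35, -0.48 and -0.54 (limma adjusted p = 0.00949, 4.78e-05 and 1.37e-05), and relative to the listed median these values are -0.03, -0.16 and -0.22. The V0 genes turned to values below 0, with -0.30 for ATP6V0B, -0.51 for ATP6V0C and -0.21 for ATP6V0D1, which are 0.02, -0.19 and 0.11 relative to the listed median. ATP6AP1 was at -0.12 (limma adjusted p = 0.124) and ATP6V1E1 at 0.13 (limma adjusted p = 0.082). The V1 minus V0 value was 1.36, 1.24 and 1.18 in DU145-TFEB and 1.23, 1.06 and 1.06 in DU145-vector. These overlapped, with a difference of 0.15 (pooled SD 0.096). In the 9 genes GC content and sector go together, and their parts in the split cannot be told apart.

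A like pattern was seen for the E-box. The 959 listed genes with CACGTG in a window had a median log2 fold change of 0.25, against -0.40 for the 6662 listed genes with a window and no core. Their median GC contents were 49.8% and 47.8%. Few listed genes lie near 0, since 52.3% of them were below -0.22 and 52.6% below 0.22. The gap between the median log2 fold changes spans this almost empty band, so it looks larger than the difference in rank. After the trend was removed both medians were -0.32. Of the 9 chosen genes, the 4 that rose all had a window, and ATP6V0B and ATP6V0D1 held the core, whereas ATP6V0C and ATP6AP1 did not. Among the other subunits that rose and had a window, ATP6V0E2 held it and ATP6V1F and TCIRG1 did not.

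Subunits beyond the named genes did not follow the sectors as closely. Of 15 further subunits and isoforms looked up, 7 had a row. Of these, 4 were higher and 3 lower in DU145-TFEB with an adjusted p-value below 0.05, against 47.6% and 52.4% of all listed genes. Their median log2 fold change was 0.43. ATP6V1F, a V1 subunit of the rotor shaft, had 2064, 2272 and 1912 normalized counts in DU145-TFEB and 1333, 1184 and 1394 in DU145-vector. It rose by 0.68 on the log2 scale (SE 0.09, limma adjusted p = 0.000105) and so went with the V0 genes and not with the 5 V1 genes. Its GC content was 55.5%, also nearer to theirs, and 23.7% of its exon bases overlap KCP on the opposite strand. ATP6V1E2, an isoform of the E subunit best known from testis, had 361, 319 and 373 against 268, 268 and 243 normalized counts, a log2 fold change of 0.43. It was at 0.54 after the trend was removed (limma adjusted p = 0.00113).

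The isoforms of the V0 a subunit, which steer the pump to different membranes, moved in opposite directions. TCIRG1, the a3 isoform of lysosomes and of osteoclasts, had 1760, 1739 and 1823 normalized counts in DU145-TFEB and 1052, 1055 and 1074 in DU145-vector, with a log2 fold change of 0.74 (SE 0.07, limma adjusted p = 1.13e-05). ATP6V0A2, the a2 isoform of Golgi and early endosomes, had 350, 344 and 386 against 564, 671 and 580, with a log2 fold change of -0.74 (SE 0.11, limma adjusted p = 0.000134). TCIRG1 minus ATP6V0A2 was 0.81 ± 0.14 in DU145-vector and 2.30 ± 0.05 in DU145-TFEB on the log2 scale (mean ± SD, n = 3), with no overlap. TCIRG1 has a GC content of 65.4% and ATP6V0A2 of 45.9%. After the trend was removed they were at -0.32 and 0.03, so that the order turned. ATP6V0A4, the a4 isoform of kidney and epididymis, had 13.7, 20.9 and 18.7 against 57.8, 47.8 and 45.0 normalized counts. It was lower by -1.46 and stayed at -1.62 after the trend was removed (limma adjusted p = 0.000107), at few reads. ATP6V0E2, an isoform of the small e subunit and the other gene with an E-box, had a log2 fold change of 0.44 and then -0.55. ATP6AP2, an accessory protein also known as the prorenin receptor, was at -0.43 and then 0.61 (limma adjusted p = 2.66e-05), the highest value of all pump genes after the trend was removed.

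Of 12 genes looked up that build and regulate the pump, 8 had a row, 2 higher and 6 lower with an adjusted p-value below 0.05, against 47.6% and 52.4% of all listed genes. Their median log2 fold change was -1.09, against -0.36 for all listed genes. After the trend was removed 1 was higher and 4 lower, and the median was -0.28, against -0.32. DMXL2 and DMXL1, large scaffold proteins of the complex that helps V1 rejoin V0, were the only pump or assembly genes past the cutoff of the study, which 16.5% of the listed genes passed as lower. DMXL2 had 291, 169 and 391 normalized counts in DU145-TFEB and 1321, 1648 and 1328 in DU145-vector. Even its highest DU145-TFEB library was far below the DU145-vector range, and the log2 fold change was -2.40 (SE 0.25, limma adjusted p = 2.24e-05). It was still -1.35 after the trend was removed (limma adjusted p = 2.79e-06). DMXL1 had 246, 150 and 321 against 696, 816 and 648 normalized counts, with a log2 fold change of -1.65, and -0.55 after the trend was removed. WDR7, their partner, went from -1.06 to -0.20 (limma adjusted p = 0.159). ROGDI, another protein of this complex, went from 0.50 to -0.57, and 38.3% of its exon bases are shared on the same strand with AC020663.4.

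VMA21 and CCDC115, chaperones of V0 assembly in the endoplasmic reticulum, differed in direction, at -1.13 and 0.57 on the log2 scale. After the trend was removed neither passed the threshold, at -0.17 (limma adjusted p = 0.0529) and -0.04 (limma adjusted p = 0.681). NCOA7 and OXR1, proteins with a TLDc domain that bind the pump, were at -1.42 and -0.85, and then at -0.35 and 0.24. Over the 24 pump and assembly genes with a row, the log2 fold change had a Spearman correlation of 0.825 with GC content, and of -0.092 after the trend was removed.

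**Figure D4:**
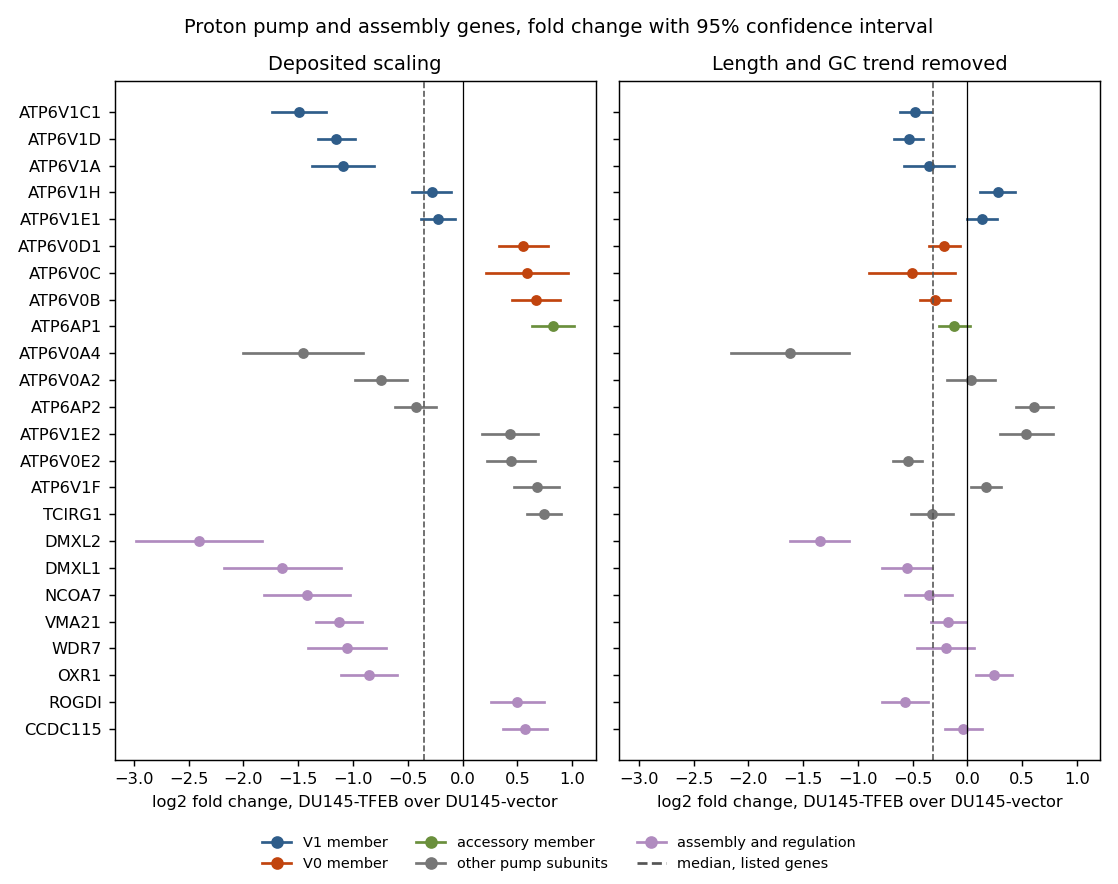
Log2 fold change of DU145-TFEB over DU145-vector (horizontal axes) of the 24 pump and assembly genes with a row, with 95% confidence intervals from limma, before (left) and after (right) the trend with length and GC content was removed. The dashed line is the median of the listed genes, at -0.36 and -0.32. At left the 5 V1 and 3 V0 members (blue and red) lie on opposite sides of 0 while the other subunits (grey) lie on both, and at right DMXL2 and ATP6V0A4 lie farthest below it.

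For comparison, 14 of 16 listed genes of the mitochondrial ATP synthase, a rotary enzyme of the same family, were higher and 2 lower with an adjusted p-value below 0.05, against 47.6% and 52.4% of all listed genes. Their median log2 fold change was 0.45, from -0.70 (ATP5PB) to 0.85 (ATP5MC2). Of 13 listed lysosomal membrane genes, 9 were higher and 4 lower, with a median of 0.47, from -1.03 for LAMP2 (GC content 39.3%) to 1.04 for MCOLN1 (61.0%). After the trend was removed 7 ATP synthase genes were higher and 5 lower, and 6 lysosomal membrane genes were higher and 4 lower, against 14.8% and 54.5% of all listed genes. The medians were then 0.15 and 0.05, against -0.32 for all listed genes and -0.30 for the 9 pump genes.

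The choice of size factor moved all 9 genes together. The rises of ATP6V0B, ATP6V0C, ATP6V0D1 and ATP6AP1 and the falls of ATP6V1A, ATP6V1C1 and ATP6V1D kept their direction under library size, TMM, upper quartile and quantile scaling and with DESeq2. ATP6V1E1 and ATP6V1H lay close enough to 0 for the scaling to decide their call. Among the settings tried, only removal of the trend, with or without the replicate block, brought V1 and V0 genes into a common range, from -0.54 to 0.28.

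**Figure D5:**
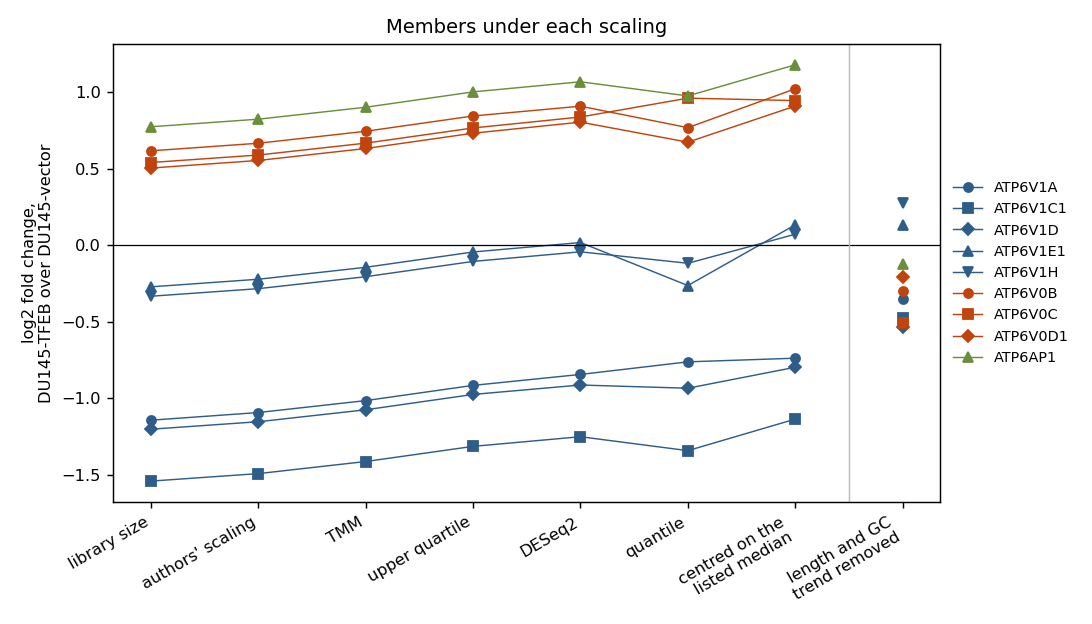
Log2 fold change of DU145-TFEB over DU145-vector (vertical axis) of the 9 pump genes under 7 settings, 6 scalings and DESeq2 on the recovered reads (joined points), and after the trend with length and GC content was removed (right of the grey line). Blue marks V1 genes, red V0 genes and green ATP6AP1. With these ATP6V1E1 and ATP6V1H lie near 0, ATP6V1A, ATP6V1C1 and ATP6V1D below and the V0 genes above it; after removal all 9 lie between -0.54 and 0.28.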

How the data were processed

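PolyA RNA libraries, 3 of DU145-TFEB and 3 of DU145-vector, were prepared with the NEBNext Ultra kit and sequenced by Novogene. The submitters' processing notes name CASAVA 1.8, HISAT2 2.1.0 and edgeR, and the paper names DESeq2; the counting program and its strand setting are not given in the sources used here. The authors deposited a normalized signal per gene, reads divided by a size factor per library (0.950 to 1.10). Whole reads were recovered for 100% of the values (tolerance 0.01). The authors also deposited group means, log2 fold changes and p-values, which were not used, except that the deposited adjusted p-values were read to see that all listed genes were below 0.05. Positions equal those of GENCODE 29 (GRCh38) for 10542 of 10542 genes.

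Log2(normalized count + 1) was compared between groups in limma 3.58.1 (R 4.3.3, mean-variance trend allowed for), with Benjamini-Hochberg adjustment over all 10542 genes and no block; 0 genes were removed by a minimum mean of 1. The design allowed for raw counts or normalized values, and the table held the latter. GC content (10537 genes) was averaged over the GENCODE 29 transcripts of a gene by length, and length is the authors' column, equal to the union of exons in 24 of 24 pump and assembly genes. The trend of each library with both was removed by loess (span 0.5), fitted to listed genes only. edgeR 4.0.16 and DESeq2 1.42.0 were run on the recovered reads. Other alternatives were pseudocounts of 0.5 and 5, a minimum of 10 reads, other scalings, each library left out and the replicate block. Centring on the listed median, leaving out ATP6V0C, and removing the trend over all subunits were chosen after seeing the data. The text names TFEB, the members, all listed genes of the subunit and assembly lists, and the extremes of the comparison lists. The members and lists were chosen with earlier results of these data known. The scripts were tested on simulated data. The chi-square per gene between libraries of a group was 3.00 to 27.6, above sampling noise, and each was counted as a replicate.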

Additional observations from a re-analysis of the deposited data

How the results depend on the processing

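The settings tried numbered 19 for each gene, 6 of which left out a library. ATP6V1A, ATP6V1C1 and ATP6V1D kept their direction and their side of the threshold under all of them, and ATP6V0B, ATP6V0C, ATP6V0D1 and ATP6AP1 under all but the settings without the length and GC trend. There, with or without the replicate block, the values were -0.30 for ATP6V0B, -0.51 for ATP6V0C, -0.21 for ATP6V0D1, -0.12 for ATP6AP1, 0.13 for ATP6V1E1 and 0.28 for ATP6V1H. ATP6V1A, ATP6V1C1 and ATP6V1D, lower there against 0, were at -0.03, -0.16 and -0.22 relative to the listed median. The number of genes higher fell to 1, the V1 minus V0 difference became 0.15 (0.46 over all subunits, -0.56 over these without removal), and the V0 median became -0.30. ATP6V1E1 was at 0.018 with DESeq2 and 0.13 when centred on the listed median, where ATP6V1H was at 0.072; the median of all 9 genes was then 0.018 and 0.13. ATP6V1E1 lost its call with TMM (-0.14), edgeR (-0.14) and upper quartile scaling (-0.04), and ATP6V1H with upper quartile (-0.11), quantile (-0.12) and DESeq2 (-0.04). The number lower was 3 with upper quartile scaling, DESeq2 and centring. The number past the cutoff was 1 with library size scaling, 3 with a cutoff of 1, and 0 to 1 when a library was left out. Over the settings the V1 median ran from -1.19 to -0.35. The cause of these shifts was not tested.

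Same-numbered libraries did not deviate together (correlations of -0.05, -0.38 and -0.28 over 9326 genes). These correlations also carry the differences along GC content within a group, so they cannot decide whether the numbers pair libraries. With the replicate block all 9 calls held, ATP6V1E1 at an adjusted p of 0.0372. The trend was fitted to a table selected for changed genes, and 3 libraries per group limit the precision.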
